A study of Mus musculus with 6 samples.

Results

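The Zfp genes of the mouse encode zinc finger proteins, and *Zfp90*, the gene deleted in the mice examined here, is one of them. The genes described here were the protein-coding genes named Zfp followed by a number that reached at least 1 FPKM (fragments mapped to a gene, per kilobase of its transcript and per M fragments) in at least 3 of the 6 samples, together with *Zfp90* itself. Of the 365 protein-coding Zfp genes listed in the files, 230 met this level and *Zfp90* did not, which gave 231 members out of 52550 genes listed in all. The members were thus chosen by their level of expression, and not by the difference between the genotypes.

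RNA was sequenced from colon epithelium of 3 *Zfp90* fl/fl and 3 *Zfp90* ΔIEC male C57BL/6 mice, aged 6 to 8 weeks at the start. Both genotypes carried *Zfp90* alleles with exon 4 and the 3′ UTR between loxP sites, and in the ΔIEC mice Villin-Cre, which is active in intestinal epithelial cells, removed this part. All 6 mice were given the carcinogen azoxymethane (AOM) at 10 mg/kg and, 5 days later, 3 cycles of 2% dextran sulfate sodium (DSS) in the drinking water for 7 days with 14 days of plain water in between, until day 80. The age and the DSS concentration are those of the sample records. The study's methods give an age of 8 weeks and a higher DSS concentration. The genotypes had been housed apart since weaning, so that housing and genotype cannot be told apart in any comparison below. Epithelial markers were high in every sample, with 10 of 10 above the filter and a summed level of 7270 to 8230 FPKM in *Zfp90* fl/fl and 7020 to 7800 FPKM in *Zfp90* ΔIEC mice. The estimated depth was 25.7 to 28.6 M fragments per sample.

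A classical zinc finger is a short fold in which paired cysteines and histidines hold a zinc ion, and arrays of such fingers read DNA sequence. Many of these proteins also carry a KRAB box, a domain at the amino terminus that recruits the corepressor TRIM28 and, through it, the histone methyltransferase SETDB1. KRAB zinc finger proteins are best known for silencing transposable elements and imprinted loci. Other Zfp genes share little but the name, since it was also given to proteins that bind RNA, ribosomes or ubiquitin.

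Neighbouring fingers of the KRAB type are joined by a conserved linker of 5 residues. Its coding bases are shown for *Zfp90* and the 3 members whose predicted proteins were most like it, as an example of the repeated part of their coding sequence. The sequences are the first such linker of each gene on the coding strand, from the GENCODE M21 transcripts of GRCm38. Capitals mark the 5 codons of the linker, and the lower-case codons on either side are the last histidine of 1 finger and the first residue of the next.
Zfp90, chr8:106424470-106424490, plus strand: cacACTGGGGAAAAACCCttt
Zfp146, chr7:30162316-30162336, minus strand: cacACTGGAGAGAAACCTttt
Zfp930, chr8:69227940-69227960, plus strand: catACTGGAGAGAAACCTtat
Zfp2, chr11:50900831-50900851, minus strand: cacACTGGGGAGAAACCCtac

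Of the 21 bases, 18 were the same as in *Zfp90* in *Zfp146*, 16 in *Zfp930* and 18 in *Zfp2*. The stretches were found by the pattern of the linker, so most residues were alike by choice. These counts therefore do not measure how alike the genes are. A linker of this form, or one with a common substitution in its middle residues, was present in 180 of the 231 predicted proteins, in 126 of the 127 members with a KRAB box and in 54 of the 104 members without one. *Zfp90* had 8 of them and 13 fingers in 636 residues. The members had a median of 11 fingers, and *Zfp142* had the most with 41.

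*Zfp90* was at a low level in the fl/fl mice and lower still in the ΔIEC mice. It was included as the deleted gene although it did not reach the level asked of the other members, so that its place below them follows from how they were chosen. Its level was 0.630, 0.490 and 0.569 FPKM in the *Zfp90* fl/fl mice and 0.0846, 0.195 and 0.166 FPKM in the *Zfp90* ΔIEC mice, so the genotypes did not overlap. The mean in the ΔIEC mice was 26.4% of that in the fl/fl mice, a log2 ratio of the means of -1.92. The exact permutation test over the 20 assignments of 3 and 3 mice gave p = 0.1, the smallest p this design allows (two-sided).

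*Zfp90* lay below the level at which genes were tested, so its statistic came from a limma fit without that filter, in which 0.0539% of 27805 genes had an adjusted p under 0.05. On log2(FPKM + 1), a scale that understates the change of genes this low, it differed by -0.44 (95% interval -0.58 to -0.30, unadjusted p = 0.000275, adjusted p = 0.123), and by -1.44 with a pseudocount of 0.1 in place of 1 (adjusted p = 0.166). Scaled by the 2632 bases of the transcript used here, its FPKM stood for about 42.6, 36.6 and 42.7 fragments in the fl/fl mice and about 6.1, 14.7 and 12.2 in the ΔIEC mice. These numbers are estimates that also assume a length, but they show how few fragments carried the signal.

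The deposited value is for the whole gene. In this transcript, which has 4 exons on chromosome 8 of GRCm38, exon 4 at 106423913 to 106425889 made up 1977 bases, or 75.1%, and the first 3 exons outside the floxed part made up 655 bases. The first finger of the protein began at residue 210, while the first 3 exons encode 85 residues, so that all of the fingers are encoded in the floxed exon. How much of the remaining 26.4% came from the first 3 exons, and how much from cells in which the exon was kept, was not tested.

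The genotype labels of 2 of the 3 *Zfp90* ΔIEC samples name *Zfp91* and *Zfp92*, while the titles of all 3 give the same conditional knockout. *Zfp91*, which encodes a ubiquitin ligase, was at 18.3, 17.1 and 16.9 FPKM in the fl/fl mice and 17.4, 16.7 and 17.1 FPKM in the ΔIEC mice, and the replicate whose label names it, replicate 2, lay just under the lowest fl/fl sample. Its log2 fold change was -0.03 (95% interval -0.16 to 0.11, adjusted p = 0.859 from limma). *Zfp92*, which has a KRAB box and is no member, was at 0.0397, 0.0264 and 0.0525 FPKM in the fl/fl mice and 0.0217, 0.0481 and 0.0318 FPKM in the ΔIEC mice, where replicate 3, whose label names it, lay inside the range of the fl/fl mice. *Zfp90* was low in all 3 ΔIEC samples, including both of these.

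**Figure D1:**
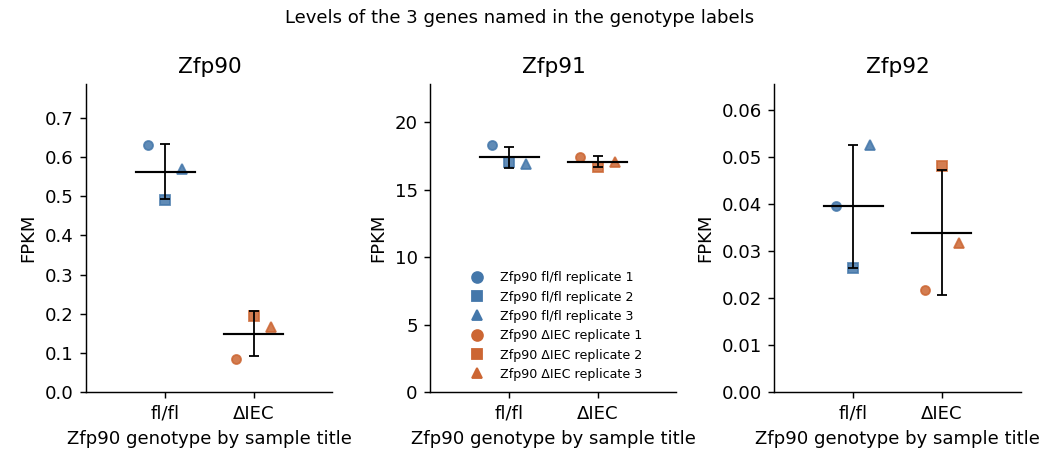
Level in FPKM (linear axes from 0, 1 panel per gene) of *Zfp90*, *Zfp91* and *Zfp92* in each sample, with points for single mice, lines for group means and bars for the SD (n = 3 per genotype). *Zfp90* was at 0.490 to 0.630 FPKM in fl/fl and 0.0846 to 0.195 FPKM in ΔIEC mice, while the genotypes overlapped for *Zfp91* and *Zfp92*.

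Placed among all 365 protein-coding Zfp genes by mean level, *Zfp90* ranked 271st in the fl/fl mice and 312th in the ΔIEC mice. Of the 134 other Zfp genes below the filter, 56 had a higher mean over the 6 samples than *Zfp90*, and 11 were listed at 0 in every sample. By the log2 ratio of group means, 7 of these 134 genes were also below -1, and 2 of them below *Zfp90*, *Zfp708* at -2.53 and *Zfp366* at -3.04. The genotypes overlapped in both, and of the 7 only *Zfp831* (-1.64, with means of 0.0562 and 0.0180 FPKM) had no overlap. Genes at 0 throughout a genotype have no such ratio and were not counted. Among them were *Zfp345* and *Zfp683*, at 0.013 and 0.0119 FPKM in 1 fl/fl sample each and at 0 in every other sample. Among the members, which are at higher levels, the lowest ratios after *Zfp90* were those of *Zfp180* at -0.91, which rested on 1 fl/fl sample at 6.42 FPKM against 1.59 to 1.80 FPKM in the other 5 samples, and *Zfp260* at -0.85.

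**Figure D2:**
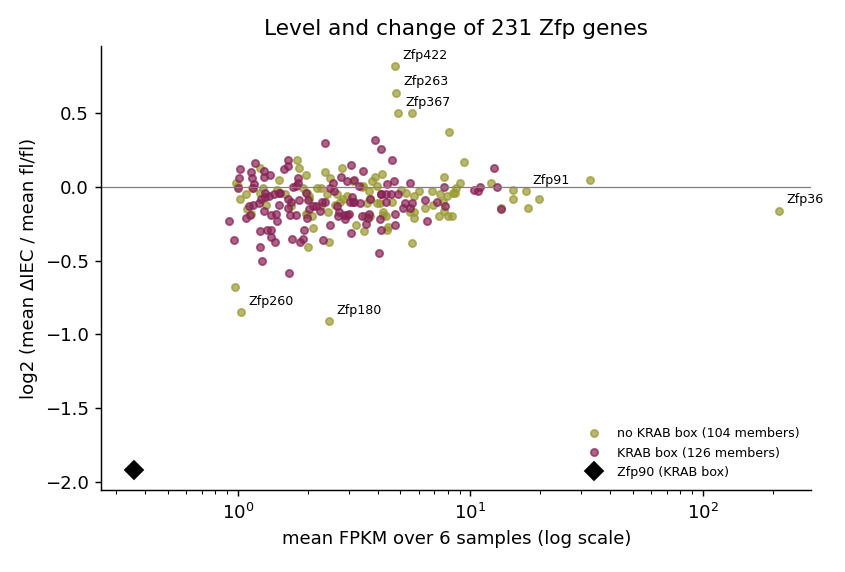
Mean FPKM over the 6 samples (log scale, horizontal axis) against the log2 ratio of mean FPKM in ΔIEC over fl/fl mice (vertical axis) for the 231 members, with members with and without a KRAB box in different colours. *Zfp90*, the black diamond, lies at -1.92, and the next lowest member, *Zfp180*, at -0.91.

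Genes with a KRAB box were on the whole expressed at lower levels than those without. In the order of their mean over the 6 samples, 15 members were above 10 FPKM, 36 between 5 and 10, 98 between 2 and 5 and 82 below 2. A KRAB box was found in 225 of the 365 genes, of which 126 (56.0%) passed the filter, against 104 of 140 genes (74.3%) without one. The median level over all listed genes was 1.18 FPKM with and 2.43 FPKM without a KRAB box, and the highest KRAB member was *Zfp869*, with a mean of 13.5 FPKM.

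The filter was a level, so members near it differ little from genes just under it. *Zfp74* (0.916, 1.03 and 1.03 FPKM in fl/fl, 1.01, 0.682 and 0.841 FPKM in ΔIEC mice) and *Zfp788* (0.713, 1.39 and 1.14, then 0.569, 0.941 and 1.02 FPKM) were just inside, each with 3 samples at 1 FPKM or more. *Zfp9* (0.909, 0.893 and 0.878, then 1.67, 0.800 and 1.00 FPKM) and *Zfp566* (1.42, 0.997 and 0.925, then 0.815, 0.981 and 0.892 FPKM) were just outside. At least 1 FPKM was reached in all 6 samples by 202 members and in 3 to 5 samples by 28, of which 0 passed through the samples of 1 genotype alone.

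The highest level by far was that of an RNA-binding protein. *Zfp36*, whose protein tristetraprolin binds AU-rich elements and promotes decay of cytokine mRNAs, was at 203, 248 and 223 FPKM in the fl/fl mice and 188, 196 and 220 FPKM in the ΔIEC mice. These ranges overlapped, and the log2 fold change was -0.16 (95% interval -0.38 to 0.06, adjusted p = 0.490 from limma). *Zfp706* was at 31.7, 31.6 and 32.9 FPKM in the fl/fl mice and at 32.5, 33.7 and 33.5 FPKM in the ΔIEC mice, again overlapping. *Zfp598*, the ubiquitin ligase that senses collided ribosomes, was at 20.7, 20.9 and 19.2 FPKM and then 18.6, 20.1 and 19.1 FPKM.

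*Zfp622*, a factor in the maturation of the large ribosomal subunit, was at 18.9, 19.0 and 17.9 FPKM in the fl/fl mice and 16.3, 16.9 and 17.5 FPKM in the ΔIEC mice. Here the genotypes did not overlap, with a log2 fold change of -0.13 (95% interval -0.26 to 0.00, unadjusted p = 0.0491, adjusted p = 0.340). The other members among the 10 highest were *Zfp91*, the RNA-binding *Zfp106* (means of 15.4 and 15.1 FPKM), *Zfp740* (15.6 and 14.8 FPKM), *Zfp207*, a spindle and kinetochore factor (14.1 and 12.8 FPKM), and the KRAB genes *Zfp869* (14.1 and 12.8 FPKM) and *Zfp7* (13.1 and 13.0 FPKM), the fl/fl mean given first. Of these 6, *Zfp207* had no overlap between the genotypes, at 15.1, 13.6 and 13.6 against 12.4, 12.8 and 13.3 FPKM (log2 fold change -0.13, adjusted p = 0.411).

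Of the 230 members tested, 0 had an adjusted p under 0.05 in limma, against 0.199% of all 11564 genes tested. An unadjusted p under 0.05 was reached by 23 members (10.0%), 20 lower and 3 higher in the ΔIEC mice, against 14.6% of all genes. On the lower side this was 8.70% of members and 8.09% of all genes, while 6.56% of all genes were higher. The genotypes did not overlap in 43 members (18.7%), 39 lower and 4 higher, against 21.3% of all genes. On the lower side this was 17.0% of members and 12.6% of all genes, while 8.73% of all genes were higher. Over both sides the member shares were below those of all genes, and on the lower side they were above them, differences that were not tested.

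The members were spread narrowly around a slightly lower level in the ΔIEC mice. Their median log2 fold change was -0.063, with quartiles of -0.14 and 0.00, beside -0.023 for all genes, and 169 members (73.5%) lay below 0, against 57.2% of all genes. The share below 0 was higher among the members in each range of level: 70.4% of members and 55.3% of all genes below 2 FPKM, 73.5% and 59.4% from 2 to 5 FPKM, and 78.4% and 56.6% from 5 FPKM up. With median ratio scaling of the samples the shares were 67.4% and 51.2%, and the members with an unadjusted p under 0.05 fell to 12, of which 9 were lower. Over all 11564 genes that count went from 1694 to 1629. The 95% interval of the log2 fold change lay wholly between -0.5 and 0.5 for 200 of the 230 members, so the intervals of these allowed no larger difference on this scale.

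The count of 23 changed when single samples were left out. It was 15 without any 1 of the 3 fl/fl samples, 11 without ΔIEC replicate 2 and 12 without ΔIEC replicate 3, but 24 without ΔIEC replicate 1. The count over all 11564 genes, 1694 with every sample, moved too. It was 1305, 1295 and 1305 without fl/fl replicates 1, 2 and 3. Without ΔIEC replicates 1, 2 and 3 it was 1775, 1404 and 1549. The share of members below 0 stayed between 67.0% and 79.6% in these fits.

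**Figure D3:**
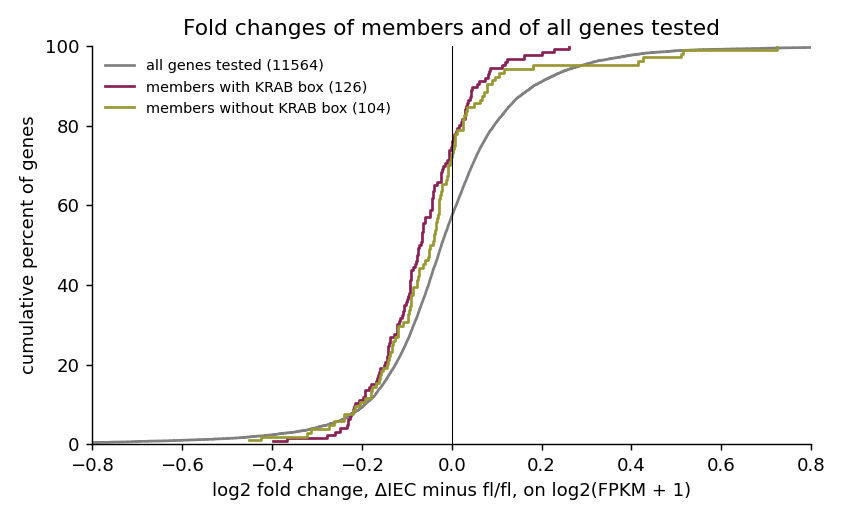
Cumulative percent of genes (vertical axis) by log2 fold change on log2(FPKM + 1), ΔIEC minus fl/fl (horizontal axis, shown from -0.8 to 0.8), for 126 members with a KRAB box, 104 members without one and all 11564 genes tested. Both member curves lie to the left of the curve of all genes around 0, with medians of -0.071, -0.045 and -0.023.

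KRAB members and the others had similar median differences. The median log2 fold change was -0.071 for the 126 tested members with a KRAB box and -0.045 for the 104 without, and 74.6% and 72.1% lay below 0. The genotypes did not overlap in 30 KRAB members (23.8%) and in 13 members without the box (12.5%), beside 21.3% of all genes. Of these, 28 and 11 were lower in the ΔIEC mice, or 22.2% and 10.6%, beside 12.6% of all genes. The share of the KRAB members was thus near that of all genes over both sides and above it on the lower side. This difference was not tested. An unadjusted p under 0.05 was reached by 13 KRAB members (10.3%) and 10 of the others (9.62%), both shares below the 14.6% of all genes. No fold change among the KRAB members was larger than 0.5 in size, and they ranged from -0.40 to 0.26.

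Among the members with an unadjusted p under 0.05, 3 were higher in the ΔIEC mice. *Zfp367* was at 4.47, 3.93 and 3.75 FPKM in the fl/fl mice and 6.14, 5.41 and 5.63 FPKM in the ΔIEC mice, all 3 above the fl/fl samples. Its log2 fold change was 0.41 (95% interval 0.23 to 0.60), and its adjusted p of 0.0910 was the lowest of all members tested (unadjusted p = 0.00109). *Zfp263*, which encodes a DNA-binding protein with 9 fingers, was at 4.18, 3.98 and 3.04 FPKM and then 7.32, 4.19 and 5.98 FPKM, where ΔIEC replicate 2 was close to the highest fl/fl sample. *Zfp707*, a KRAB gene, was at 3.26, 4.07 and 3.04 FPKM and then 4.41, 4.18 and 4.36 FPKM.

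These 2 genes had log2 fold changes of 0.51 (adjusted p = 0.273) and 0.26 (adjusted p = 0.274). The fourth member with higher values and no overlap, *Zfp810*, had an unadjusted p above 0.05.

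The 20 members on the lower side had log2 fold changes from -0.42 to -0.13 and adjusted p-values from 0.151 to 0.340. In 17 of them the genotypes did not overlap, which is no separate result, since it rests on the same values as the p-values. A KRAB box was carried by 12 of the 20, beside 126 of all 230 members tested. *Zfp260*, a transcriptional regulator described in the heart, had the largest difference, with 1.41, 1.01 and 1.53 FPKM in the fl/fl mice and 0.640, 0.544 and 1.01 FPKM in the ΔIEC mice (log2 fold change -0.42, 95% interval -0.74 to -0.10, adjusted p = 0.236). Its highest ΔIEC sample and its lowest fl/fl sample were at the same level. *Zfp85*, a KRAB gene with 14 fingers, had the lowest adjusted p of the 20, with 1.46, 1.47 and 1.53 FPKM against 1.05, 0.961 and 1.14 FPKM (log2 fold change -0.28, 95% interval -0.45 to -0.11, adjusted p = 0.151).

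*Zfp710* was at 5.91, 5.77 and 7.39 FPKM in the fl/fl mice and 4.71, 5.09 and 4.90 FPKM in the ΔIEC mice, without overlap (log2 fold change -0.31, adjusted p = 0.206). *Zfp318*, known in B cells for the switch to IgD transcripts, was at 3.12, 2.77 and 2.48 FPKM and then 2.22, 2.10 and 2.14 FPKM, also without overlap (-0.26, adjusted p = 0.215). *Zfp369*, related to the neurotrophin receptor interacting factor *Zfp110*, was at 2.28, 2.00 and 2.14 FPKM and then 1.97, 1.50 and 1.56 FPKM (-0.23, adjusted p = 0.307). The ΔIEC samples of these 3 genes were all below every fl/fl sample.

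The remaining 3 of the 8 largest differences on this side were less even. *Zfp182*, an X-linked KRAB gene, was at 2.51, 2.76 and 2.55 FPKM in the fl/fl mice and at 2.47, 1.63 and 1.99 FPKM in the ΔIEC mice, where replicate 1 was close to the fl/fl samples. *Zfp771* was at 2.60, 1.98 and 2.31 FPKM and then 1.80, 1.39 and 2.01 FPKM, with overlap. *Zfp397* was at 4.10, 3.61 and 3.89 FPKM and then 3.65, 2.62 and 3.15 FPKM, with overlap. Their log2 fold changes were -0.26, -0.27 and -0.24, with adjusted p-values of 0.334, 0.333 and 0.340 in this order.

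**Figure D4:**
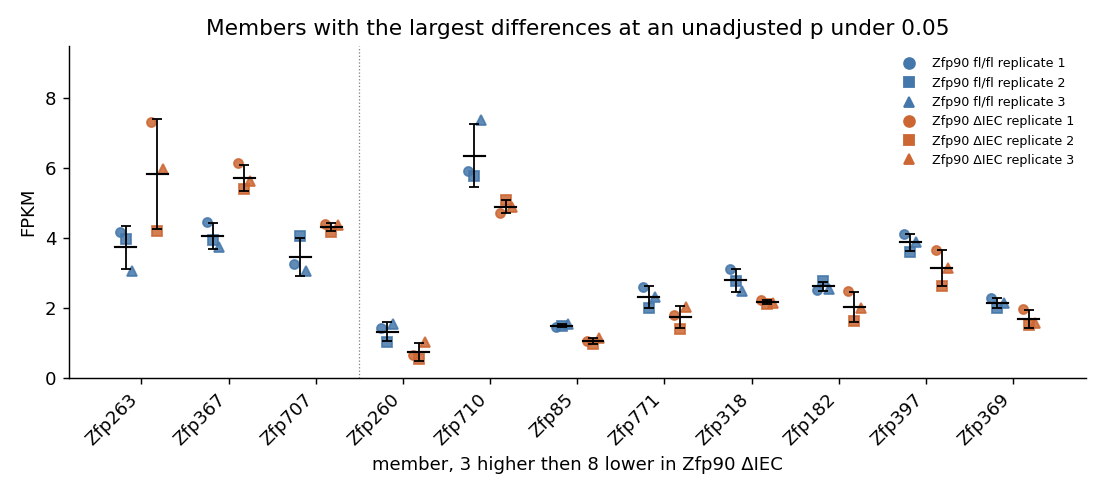
Level in FPKM (linear axis from 0) of the 3 members with higher and the 8 with the most lower values in ΔIEC mice among those with an unadjusted p under 0.05, with points for single mice, lines for means and bars for the SD (n = 3 per genotype). *Zfp367* shows 3.75 to 4.47 FPKM in fl/fl and 5.41 to 6.14 FPKM in ΔIEC mice, and *Zfp260* is the lowest of the 11.

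Markers of leukocytes had lower means in the ΔIEC mice. This held for all 17 of the list, 11 of them without overlap between the genotypes. Of all genes tested, 12.6% were lower without overlap, but most of the list lay below the filter, so that share covers an unlike set of genes. Of the markers above the filter, only *Laptm5* had no overlap. It passed the filter through the fl/fl samples alone, at 1.67, 1.48 and 1.52 FPKM against 0.453, 0.62 and 0.83 FPKM. Its lack of overlap thus follows from how it passed, and its p-values carry the same limit. Only 3 of the 17 passed the filter, and 0 had an adjusted p under 0.05 in limma, the lowest being 0.0664 for *Laptm5* (unadjusted p = 0.000396), while *Cd68* and *Ly6g* had unadjusted p-values of 0.0951 and 0.531. The summed level of the 17 was 32.6 to 55.9 FPKM in the fl/fl and 26.2 to 38.2 FPKM in the ΔIEC mice, or 8.67 to 11.2 and 3.71 to 5.29 FPKM without *Ly6g*, which made up most of the sum. The neutrophil genes *S100a8* and *S100a9* were listed at 0 in all 3 ΔIEC samples, but they were also low in the fl/fl mice. There they were at 0.236, 0.466 and 0.451 FPKM and at 0.881, 0.476 and 1.62 FPKM. *Ly6g*, also a neutrophil marker, overlapped between the genotypes, at 24.8, 23.9 and 44.7 FPKM in the fl/fl mice and 25.7, 21.9 and 32.9 FPKM in the ΔIEC mice. It was far above every other marker of the list, and whether its level came from neutrophils was not tested. The leukocyte marker *Itgam* was at 0.943, 1.01 and 0.928 FPKM and then 0.151, 0.132 and 0.18 FPKM, without overlap. Fewer leukocytes and less RNA per cell cannot be told apart in bulk RNA, and the part of these cells in the levels of the members was not tested.

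Of the other lists, stroma summed to 3.42 to 4.06 FPKM in the fl/fl and 2.34 to 3.53 FPKM in the ΔIEC mice, endothelium to 0.224 to 0.340 and 0.445 to 0.522 FPKM, smooth muscle to 0.532 to 1.08 and 1.07 to 1.29 FPKM, and enteric neurons and glia to 0.386 to 0.515 and 0.298 to 0.444 FPKM. Without the highest gene of each list, the sums of the genotypes overlapped in every list. Endothelium without *Pecam1* was at 0.0269 to 0.0753 FPKM in the fl/fl and 0.0256 to 0.0451 FPKM in the ΔIEC mice. Smooth muscle without *Tagln* was at 0.191 to 0.313 and 0.293 to 0.356 FPKM. *Emcn* of the endothelial and *Sox10* of the glial markers were listed at 0 in every sample.

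Of the 14 members listed as acting on RNA, translation or ubiquitin, 12 lay below 0 (85.7%), 2 had an unadjusted p under 0.05 (*Zfp622* and *Zfp318*, 14.3%) and 4 had no overlap (28.6%), with a median log2 fold change of -0.074. Of the 33 members listed as known transcriptional regulators, 23 lay below 0 (69.7%), 3 had an unadjusted p under 0.05 (*Zfp263*, *Zfp260* and *Zfp369*, 9.09%) and 4 had no overlap (12.1%), with a median of -0.038. Over all genes tested the same 3 shares were 57.2, 14.6 and 21.3%, so that the called share of the first list was near that of all genes and that of the second below it. The profile search found a KRAB box in *Zfp871* of the first list, which had no overlap. In the second list it found a KRAB box in 4 of the 33, *Zfp110*, *Zfp369*, *Zfp445* and *Zfp809*. At the highest levels in this list were *Zfp740*, *Zfp445*, a KRAB gene that maintains imprints (11.0 FPKM in both genotypes), *Zfp110*, the neurotrophin receptor interacting factor (10.5 and 10.3 FPKM), and *Zfp703*, a corepressor without classical fingers (8.86 and 9.97 FPKM). The last of these varied most, at 6.35, 11.0 and 9.18 FPKM in the fl/fl mice and 9.0, 10.3 and 10.6 FPKM in the ΔIEC mice (log2 fold change 0.18, 95% interval -0.23 to 0.59).

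The members most like *Zfp90* in predicted protein were *Zfp146*, *Zfp930*, *Zfp2*, *Zfp239* and *Zfp971*, which shared 54.1, 54.0, 53.4, 53.2 and 51.5% of residues over the shorter protein of the pair, against a median of 37.5% over all members. With other gap penalties in the alignment, a choice made after the data were seen, 3 of these 5 stayed among the nearest, and *Zfp931* at 60.1% and *Zfp825* at 54.1% took the places of *Zfp2* and *Zfp971*. Of the first 5, *Zfp146*, *Zfp2* and *Zfp239* have no KRAB box. *Zfp146*, a protein made almost only of fingers, was at 7.26, 9.35 and 9.62 FPKM in the fl/fl mice and 9.74, 7.63 and 8.62 FPKM in the ΔIEC mice, far above the fl/fl level of *Zfp90*, with a log2 fold change of -0.01 (95% interval -0.30 to 0.28). *Zfp930*, on the same chromosome as *Zfp90*, was at 1.39, 1.23 and 1.64 FPKM and then 1.21, 1.04 and 0.950 FPKM, without overlap (-0.23, 95% interval -0.45 to 0.00, unadjusted p = 0.0473, adjusted p = 0.333).

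*Zfp971* was at 2.13, 2.04 and 2.10 FPKM in the fl/fl mice and 1.96, 1.26 and 1.64 FPKM in the ΔIEC mice, again without overlap (-0.25, 95% interval -0.50 to 0.00, adjusted p = 0.346). *Zfp2* and *Zfp239* overlapped between the genotypes, with log2 fold changes of -0.04 and -0.01. None of the 5 had an adjusted p under 0.05.

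The members lie on 20 chromosomes, with 123 of the 231 on chromosomes 7, 17, 8 and 13 and 108 on the others. Chromosome 7 held 49, of which 25 carried a KRAB box, and chromosome 17 held 37, of which 33 did. Of those tested, 36 of 49 lay below 0 on chromosome 7, 24 of 37 on chromosome 17, 16 of 18 on chromosome 13 and 12 of 18 on chromosome 8. The 3 members nearest to *Zfp90* on chromosome 8, measured between the gene centres, were *Zfp821* at 3.29 Mb, *Zfp612* at 3.67 Mb and *Zfp1* at 5.24 Mb. Their log2 fold changes were 0.10, -0.07 and -0.08, with adjusted p-values of 0.640, 0.792 and 0.687.

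Most members were steady from mouse to mouse. The highest of the 6 samples was less than 2 times the lowest in 214 members, with a median ratio of 1.32, and 3 times or more in 6 members other than *Zfp90*. *Zfp422* was the most uneven, at 1.08, 1.14 and 8.08 FPKM in the fl/fl mice and 8.56, 0.980 and 8.65 FPKM in the ΔIEC mice, so that each genotype had samples at both levels and none in between. Its log2 fold change of 0.72, the largest of all members, had a 95% interval from -1.14 to 2.59.

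*Zfp961* was at 2.26, 0.789 and 3.33 FPKM in the fl/fl mice and 0.933, 3.57 and 3.35 FPKM in the ΔIEC mice. *Zfp12* was at 2.62, 1.11 and 2.23 FPKM and then 0.558, 1.69 and 1.75 FPKM. *Zfp62* was at 1.65, 1.33 and 0.619 FPKM and then 0.551, 1.21 and 0.493 FPKM. In these 3 genes too the low and the high samples fell in both genotypes.

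*Zfp524* was at 7.34, 4.29 and 2.33 FPKM in the fl/fl mice and 5.99, 7.19 and 6.51 FPKM in the ΔIEC mice. A predicted gene that overlaps it on the same strand, *Gm44973*, was listed at 1.79 and 2.19 FPKM in fl/fl replicates 2 and 3 and at 0 in the other 4 samples, so the 2 samples with the lowest *Zfp524* were those with a level for the overlapping gene. Such overlaps are common, since 111 of the 231 members overlap another annotated gene, 47 of them on the same strand. How far these overlaps affect the levels of the members was not tested.

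**Figure D5:**
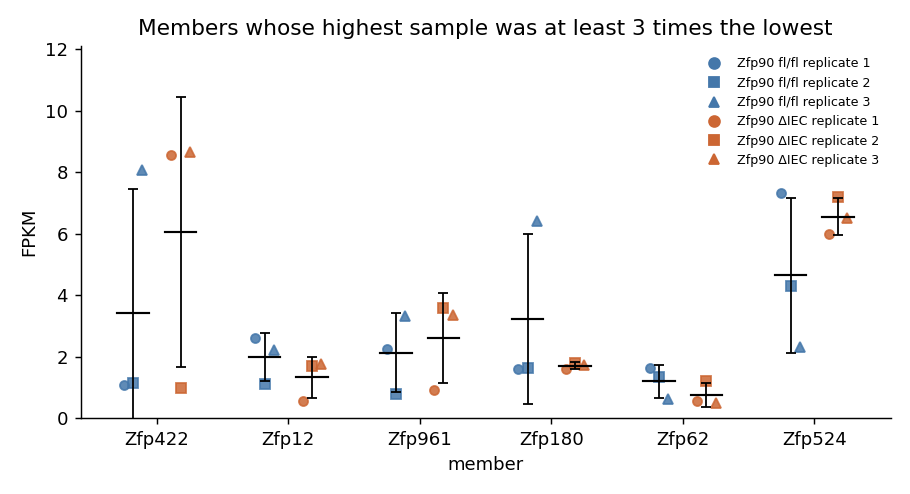
Level in FPKM (linear axis from 0) of the 6 members other than *Zfp90* whose highest sample was at least 3 times the lowest, with points for single mice, lines for means and bars for the SD (n = 3 per genotype, the lower bar of *Zfp422* in fl/fl mice runs below 0 and is cut there). *Zfp422* falls into levels of 0.980 to 1.14 FPKM and 8.08 to 8.65 FPKM, with both genotypes in each.

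The genes for the corepressor machinery of KRAB proteins were expressed at a median of 9.21 FPKM, and 0 of the 30 tested of 31 listed had an adjusted p under 0.05 in limma. An unadjusted p under 0.05 was reached by 4 (13.3%, beside 14.6% of all genes). All 4 were higher in the ΔIEC mice, a side that held 6.56% of all genes, a difference that was not tested. The genotypes did not overlap in 7 genes of the list (23.3%, beside 21.3% of all genes), 5 higher and 2 lower. *Trim28*, the corepressor that KRAB boxes bind, was at 27.3, 26.5 and 27.5 FPKM in the fl/fl mice and 27.5, 29.4 and 26.8 FPKM in the ΔIEC mice (log2 fold change 0.04, 95% interval -0.10 to 0.17). *Setdb1*, the histone H3 lysine 9 methyltransferase, was at 9.29, 7.97 and 8.51 FPKM and then 8.19, 7.25 and 7.29 FPKM (-0.16, 95% interval -0.34 to 0.02). Both overlapped between the genotypes.

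The difference highest in this list was that of *Uhrf1*, which recruits the maintenance DNA methyltransferase, at 9.81, 8.25 and 8.78 FPKM in the fl/fl mice and 13.3, 14.5 and 11.5 FPKM in the ΔIEC mice, without overlap (log2 fold change 0.50, 95% interval 0.26 to 0.73, adjusted p = 0.0995). The lowest was that of the de novo methyltransferase *Dnmt3a*, with means of 2.39 and 2.02 FPKM (-0.16, adjusted p = 0.446). Of the genes known as partners of the ZFP90 protein, *Rest* was at means of 4.34 and 4.14 FPKM (log2 fold change -0.05) and *Foxp3*, the regulatory T cell factor, at 0.0172 and 0.0339 FPKM, below the filter.

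Over all members, the FPKM summed to 1148, 1157 and 1132 in the fl/fl mice and to 1100, 1050 and 1101 in the ΔIEC mice, without overlap. Without *Zfp36*, which alone made up 188 to 248 FPKM of each sum, the sums were 945.1, 909.2 and 908.7 in the fl/fl mice and 911.7, 854.7 and 881.0 in the ΔIEC mice, which overlapped.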

How the data were processed

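Colon epithelium of 3 *Zfp90* fl/fl and 3 *Zfp90* ΔIEC mice was profiled by strand-specific paired-end RNA-seq. The authors deposited an FPKM per Ensembl gene for each sample. The submitters' processing notes name STAR 2.5, Cuffnorm, DESeq 1.22.1 and the mm9 build, while the study's methods name TopHat, Cuffdiff and a human genome. Which of these made the files, and whether counting used strand, is not given in the sources used here. Samples were grouped by title. Symbols, positions and transcripts came from GENCODE M21 (GRCm38), and no coordinate came from mm9. Depth was estimated from steps between low FPKM values (60.3 to 67.6% within 0.1 of a whole fragment). Only genes that reached 1 FPKM in 3 or more of the 6 samples were tested with limma 3.58.1 (R 4.3.3) with a mean-variance trend on log2(FPKM + 1), with Benjamini-Hochberg adjustment over all 11564 genes and a threshold of 0.05. The fit was tested on simulated data. Zinc fingers were counted by pattern in translated transcripts, and KRAB boxes were called with a pyhmmer 0.12.3 profile built from 157 family sequences (E-value under 0.001). Identities came from global alignments with blastp scores (Biopython 1.88), with gap penalties of 10 and 0.5 as an alternative. Nothing states that the samples were separate cultures or litters, so p-values measure the spread between these mice.

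Genes were named by a rule: the genes in the genotype labels, the 10 highest members, up to 8 members on each side by fold change among those with an unadjusted p under 0.05, the 4 highest of each role list, those nearest the filter and those nearest *Zfp90* in protein. *Zfp810*, *Zfp180*, the genes below the filter with low ratios and the members uneven between samples were named after their values were seen. Members and lists were chosen with earlier results of these data known. Alternatives were another pseudocount, no filter, quantile normalization, median ratio scaling, a replicate block and each sample left out.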

Additional observations from a re-analysis of the deposited data

How the results depend on the processing

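Under every alternative, 0 of the 230 members and 0 corepressor genes had an adjusted p under 0.05, the median log2 fold change of the members ran from -0.085 to -0.043 (-0.063 as reported, with an SD between samples of 0.0341 for the median deviation of the members from their genotype means), and *Zfp90* was lower in the ΔIEC mice in all 11 fits, with adjusted p-values from 0.123 to 0.329. The number of all genes past the threshold, 23, was 13 with a pseudocount of 0.1, 15 without the filter, 47 with the replicate block and 10 to 21 with 1 sample left out. The members with an unadjusted p under 0.05, 23, numbered 14 with quantile normalization, 12 with median ratio scaling and 11 to 24 with 1 sample left out. Over all 11564 genes that count, 1694, was 1667, 1629 and 1295 to 1775 in the same fits. Members without overlap, 43, numbered 62 to 84 with 1 sample left out, where 3 mice against 2 overlap less often by construction. The cause of the other shifts was not tested.

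Members near 0 changed sign. With quantile normalization, the log2 fold change was 0.00 for *Zfp91*, 0.01 for *Zfp7*, *Zfp445* and *Zfp146* and 0.02 for *Zfp239*. With median ratio scaling, it was 0.00 for *Zfp106*, 0.02 for *Zfp7* and *Zfp445* and 0.01 for *Zfp110*, *Zfp146* and *Zfp239*. With a pseudocount of 0.1 it was 0.00 for *Zfp239*. With 1 sample left out, the values ran from -0.05 to 0.01 for *Zfp91*, -0.06 to 0.03 for *Zfp106*, -0.05 to 0.07 for *Zfp7*, -0.11 to 0.07 for *Zfp445*, -0.04 to 0.01 for *Zfp110*, -0.02 to 0.34 for *Zfp703*, -0.12 to 0.07 for *Zfp146* and -0.10 to 0.17 for *Zfp239*.

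After the group means were removed, the pairs of samples that share a replicate number had correlations across genes of 0.194, 0.110 and 0.078. The other pairs ran from -0.128 to 0.014, so each sample correlated best with its own number. The main fit did not pair the mice by these numbers, and whether the numbers mark a shared factor was not tested. With the replicate block, 21 members and 1875 of all 11564 genes had an unadjusted p under 0.05. In that fit 0 members had an adjusted p under 0.05, and *Zfp90* had an adjusted p of 0.329. Fits that leave out a sample rest on 2 mice in 1 genotype. At 3 mice a genotype, a single-gene permutation test cannot go below 0.1.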

Other observations

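Among the Zfp genes below the filter, 3 were picked after their values were seen. *Zfp60*, a KRAB gene, was at 0.867, 1.36 and 1.29 FPKM in the fl/fl mice and 0.742, 0.644 and 0.569 FPKM in the ΔIEC mice, without overlap (log2 fold change -0.39, adjusted p = 0.341 from limma without the filter). *Zfp708* was at 0.0341, 1.15 and 1.18 FPKM in the fl/fl mice and 0.117, 0.0696 and 0.222 FPKM in the ΔIEC mice, so that 1 fl/fl sample lay below every ΔIEC sample. *Zfp46* was at 2.52 FPKM in ΔIEC replicate 1 and at 0.245 to 0.484 FPKM in the other 5 samples.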
